A study of Mus musculus with 6 samples.

Results

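The early transcriptional response to TNFα was examined by setting the RNA of primary mouse embryonic fibroblasts (MEFs) collected after 1.5 hr of the cytokine against the RNA of untreated MEFs. A gene entered the comparison as its highest RefSeq protein-coding (NM_) transcript, which gave 20275 genes from 25684 transcripts. Of these, 6571 genes (32.4%) had a mean above 85.6 over the 8 deposited columns of the time course and were counted. The values are RPKM (reads scaled to the length of the transcript and to the reads mapped) on the scale the authors deposited, on which 85.6 stands for about 1 RPKM. The ratio of a gene is its mean at 1.5 hr over its mean in untreated cells, divided by the median ratio of the counted genes, and it is given as a log2 value. A gene was called higher or lower when this centred ratio was at least 2-fold.

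The wider series holds 4 RNA libraries (untreated, and 1.5, 6 and 24 hr of TNFα), 1 H3K4me3 ChIP library of untreated MEFs and its input. The wildtype MEFs of all groups were grown from littermate embryos at 13.5 days on a C57BL/6x 129 background and used after 4 passages, and the treated cells received TNFα at 20 ng/ml. Poly(A) RNA was made into paired-end strand-specific (dUTP) libraries. Each library has a pair of columns, R1 and R2, and the sources used here do not state what separates them, so they were not taken as replicates. Since each time was sequenced as a single library, no difference below has a replicate check or a p-value, and each describes those libraries.

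TNFα binds receptors that recruit adaptor and ubiquitin ligase complexes, which activate the IκB kinases. The kinases mark IκB proteins for destruction and so release NF-κB dimers, which enter the nucleus and switch on genes of chemokines, adhesion molecules and survival factors. Among the first targets are genes of NF-κB inhibitors, IκBα and A20, which form the negative feedback of the pathway. In fibroblasts this programme is known for calling leukocytes to inflamed tissue and for matrix turnover.

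Before centring, the median gene was 1.37-fold higher at 1.5 hr (log2 0.45), and every centred ratio of 1.5 hr below is relative to that shift. The ratios of 6 and 24 hr were each centred on their own median, log2 -0.74 and 0.11. The centred log2 ratios of the 6571 genes had an SD of 1.02, with 5% of them below -1.65 and 5% above 1.54. The R1 and R2 columns gave nearly the same ratios: the log2 ratio of a gene differed between them by a median of 0.06, by more than 0.29 for 5% of genes, and by more than 2 for 2 genes. The lowest deposited values of the 4 columns came in steps of 0.907 to 0.955 on a 1 kb transcript, with 67.3% to 70.6% of values within 0.1 of a whole step. The sources used here do not say whether a step is 1 read, so the depth behind a value is unknown and no counting interval is given.

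Cell type markers were checked first. The 12 fibroblast markers, such as Col1a1, Thy1 and Vim, summed to 99867 in untreated cells and 110005 at 1.5 hr, and 11 of them passed the level. None of the 8 endothelial markers did (summed level 85.9 and 55.1), and neither did the 8 markers of skeletal muscle (25.5 and 71.0), of which 2 were at 0 in untreated cells. Of the epithelial markers 1 passed (Krt19, summed level 236 and 240), and of the 7 neural markers listed, 2 passed (Nes and Tubb3, summed level 1344 and 1036). Markers of macrophages and other leukocytes were present: 6 of 10 passed, and their summed level was 6424 in untreated cells and 21292 at 1.5 hr. The member with the largest difference in level was Lyz2, which encodes lysozyme, with 2108 and 2405 in the untreated columns and 14345 and 14990 at 1.5 hr. Csf1r, the receptor of macrophage colony-stimulating factor, was at 292 and 297 against 267 and 307. The part of such cells in the results below was not tested, and in bulk RNA more cells of a type cannot be told apart from more RNA per cell.

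At 1.5 hr, 1030 genes were at least 2-fold higher (15.7% of those counted) and 1150 were at least 2-fold lower (17.5%). Every list count below stands beside these shares. Both columns on their own passed the threshold for 944 of the higher and 1050 of the lower genes. At least 4-fold, 109 genes were higher and 148 lower, and at least 8-fold, 28 were higher and 11 lower. Without centring the split was 1962 higher and 514 lower, and with libraries scaled to the sum of their values it was 1428 and 833, so the balance of higher and lower genes depends on the scaling. Without centring, a lower call is lost unless it passed the threshold by more than the shift of 0.45. Within 0.05 of the threshold on the log2 scale, 81 genes lay above it and 95 below. Of the 1030 higher genes, 609 were already above 85.6 in untreated cells and 421 were at or below it. Of the 109 genes at least 4-fold higher, 35 were above it in untreated cells. The filter uses a mean that includes the 1.5 hr library, so a gene that was low in untreated cells could pass through its later values alone. Many of the lists below hold such genes, so a list's count of higher genes is in part set by the filter. Of the 1150 lower genes, 1027 were still above 85.6 at 1.5 hr and 123 were not.

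**Figure D1:**
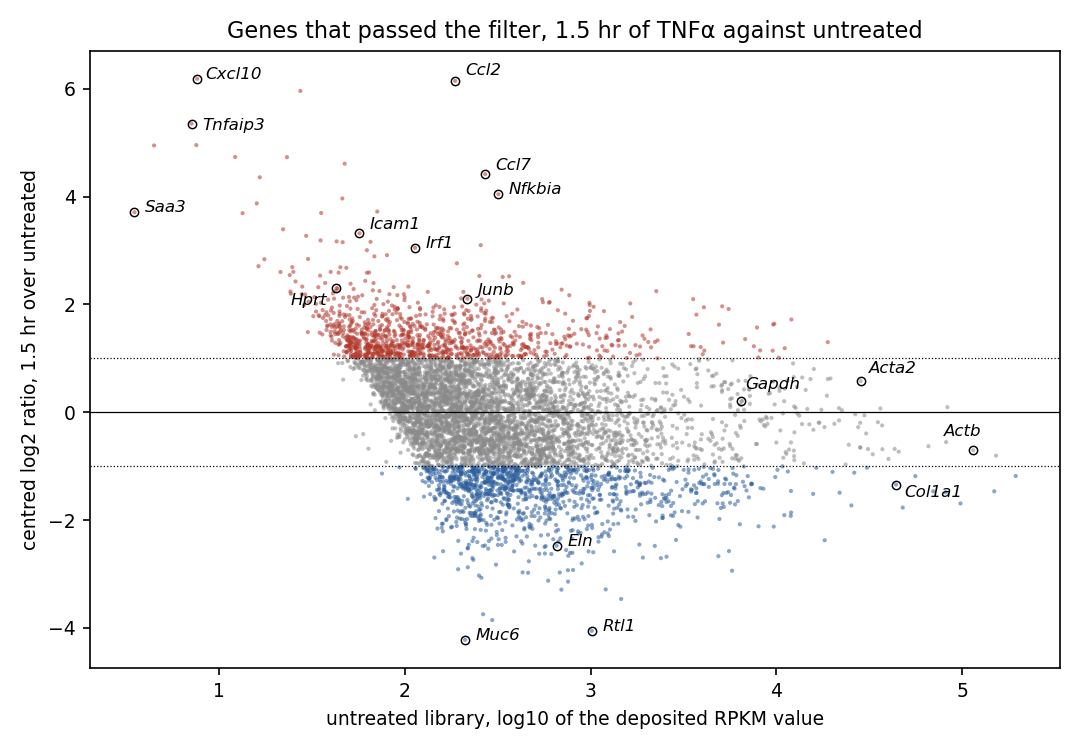
Centred log2 ratio of 1.5 hr of TNFα to untreated (vertical axis) against the untreated value on the deposited RPKM scale (horizontal log axis), 1 point for each of the counted genes with an untreated value above 0, and dashed lines at 2-fold. The genes with the highest ratios, such as Cxcl10 at 6.19 and Ccl2 at 6.15, started from low or moderate untreated levels. The untreated level is also the denominator of the ratio.

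The ratios went with the base composition of the transcripts. Among the 6446 counted genes whose GC content was known (98.1%), Spearman's rho of GC content with the log2 ratio was -0.56 across genes, which share the same libraries and are not independent replicates. In the twentieth of genes with the lowest GC content (median 40.8%), the median log2 ratio was 0.97, with 48.0% of genes called higher and 2.48% called lower. In the twentieth with the highest GC content (median 62.2%), it was -1.22, with 1.86% called higher and 60.1% called lower. The ratios of 6 hr and 24 hr to the same untreated library had rho of -0.36 and -0.55 with GC content. Each gene is therefore also given relative to the median of its own GC bin, called the GC-centred log2 ratio. On that ratio 690 genes were at least 2-fold higher (10.7% of 6446) and 682 lower (10.6%). On both ratios, 435 genes were called higher and 469 lower. The part of base composition in any single gene's difference was not tested. Spearman's rho of the log2 ratio with the untreated level was -0.45 and with transcript length -0.11 over the same genes. The untreated level is the denominator of the ratio, and genes low in untreated cells could pass through later values. A negative rho with that level is thus favoured in advance and is not a result.

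**Figure D2:**
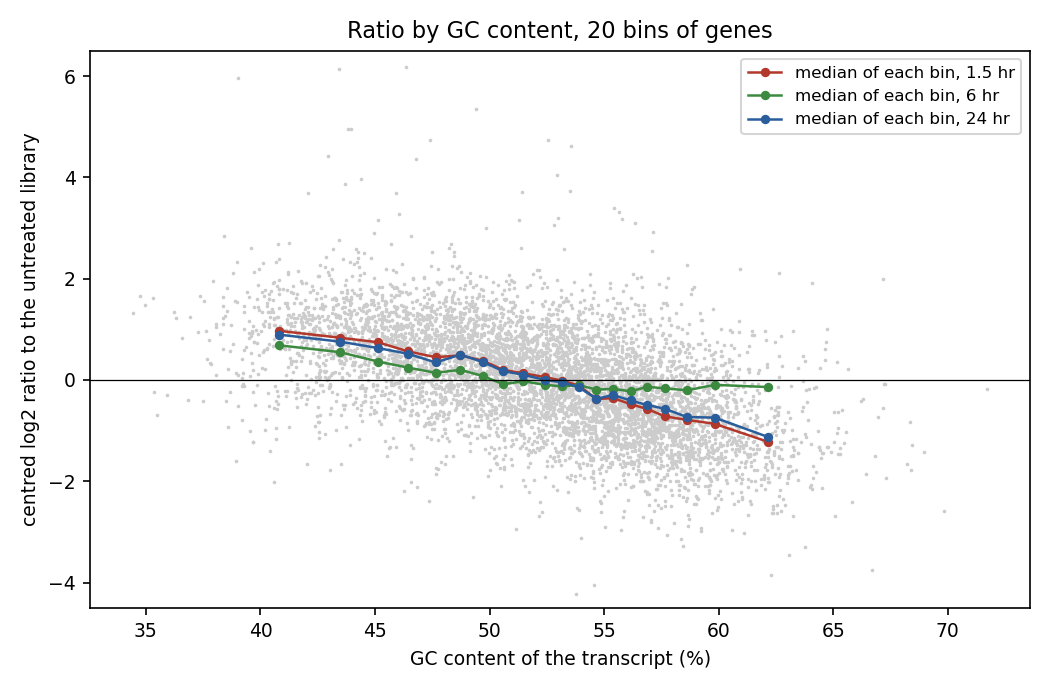
Centred log2 ratio to the untreated library (vertical axis) against percent GC content of the transcript (horizontal axis), 1 point per gene at 1.5 hr. Lines join the medians of 20 bins of GC content at 1.5, 6 and 24 hr. The bin medians at 1.5 hr fall from 0.97 at the lowest GC content to -1.22 at the highest. At 6 hr the same bins are at 0.68 and -0.14.

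The highest ratio belonged to Cxcl10, a chemokine that draws T cells through the receptor CXCR3. Its untreated columns read 7.90 and 7.38 and its columns at 1.5 hr 769 and 755, a 72.8-fold difference (log2 6.19, GC-centred 5.62). The 250 bases before its annotated start, at chr5:92348890-92349139 (minus strand) in GRCm38.p6 as RefSeq gives them, are shown because they hold the letters looked for below. Capitals mark GGNNNTTCC, the core of the NF-κB consensus, on either strand.
Cxcl10: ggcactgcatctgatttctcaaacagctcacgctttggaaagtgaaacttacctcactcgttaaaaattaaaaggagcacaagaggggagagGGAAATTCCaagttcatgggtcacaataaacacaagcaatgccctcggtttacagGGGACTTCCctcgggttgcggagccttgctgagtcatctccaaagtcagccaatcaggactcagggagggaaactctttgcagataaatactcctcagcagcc
The 2 matches begin 158 and 103 bases before the start.

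Ccl20, which attracts cells carrying CCR6, read 24.7 and 30.1 in untreated cells and 2402 and 2280 at 1.5 hr (62.3-fold, log2 5.96). Cxcl2, a neutrophil chemokine, read 3.52 and 5.44 and then 204 and 175 (30.9-fold, log2 4.95). In both, the lowest column at 1.5 hr stood far above the highest untreated column. Their upstream bases are at chr1:83116516-83116765 (plus strand) and chr5:90903649-90903898 (plus strand), with capitals as before.
Ccl20: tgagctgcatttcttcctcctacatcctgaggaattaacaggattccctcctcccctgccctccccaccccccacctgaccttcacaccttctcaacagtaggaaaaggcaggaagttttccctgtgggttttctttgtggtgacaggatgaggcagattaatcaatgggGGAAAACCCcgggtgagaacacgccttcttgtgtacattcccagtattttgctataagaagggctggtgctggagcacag
Cxcl2: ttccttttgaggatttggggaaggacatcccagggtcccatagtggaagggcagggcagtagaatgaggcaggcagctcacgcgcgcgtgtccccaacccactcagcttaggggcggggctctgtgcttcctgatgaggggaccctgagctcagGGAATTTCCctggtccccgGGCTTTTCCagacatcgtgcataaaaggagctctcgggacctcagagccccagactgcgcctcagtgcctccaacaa
Ccl20 holds 1 match, 80 bases before the start, and Cxcl2 holds 2, at 96 and 77 bases before it.

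The monocyte chemokines Ccl2 and Ccl7 reached the highest values of the chemokines given here. Ccl2 read 118 and 256 in untreated cells and 11601 and 24640 at 1.5 hr (70.9-fold, log2 6.15). Its R2 value was above its R1 value by a like factor at both times, so the ratio was 6.18 in R1 and 6.12 in R2. Ccl7 read 272 and 270 and then 7934 and 7920 (21.4-fold, log2 4.42). Ccl5, a chemokine for T cells and monocytes, read 41.9 and 53.2 and then 1367 and 1816 (24.5-fold, log2 4.61). Groups of columns did not overlap for any of these genes, which their choice by both columns favours.

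Of 19 CC chemokines listed, 8 passed the level, and 6 were called higher, 1 lower and 1 neither, with a median log2 ratio of 4.06 (GC-centred, 5 higher and 0 lower of 8). Besides those already given, Ccl12 (3.70) and Ccl8 (1.37) were higher and Ccl27a (-1.28) was lower, and with GC centring Ccl8 (0.92) and Ccl27a (-0.70) were inside the threshold. Of 16 CXC and CX3C chemokines 8 passed, with 5 higher and 0 lower and a median of 2.07 (GC-centred, 4 and 0). Cxcl1, a close relative of Cxcl2, read 54.7 and 76.3 in untreated cells and 778 and 826 at 1.5 hr (8.95-fold). Cx3cl1, or fractalkine, read 78.9 and 81.8 and then 820 and 838 (7.54-fold). Cxcl12, a chemokine that fibroblasts make without stimulation, had the highest untreated level of the list, 484 and 530, and was at 1014 and 1033 (log2 0.56), below the threshold. Over all genes counted the percentages called higher and lower were 15.7 and 17.5, and members that passed only through their treated values had to differ.

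Of the inhibitors that feed back on NF-κB, Nfkbia and Tnfaip3 were among the 12 highest ratios. Nfkbia, which encodes IκBα, read 310 and 328 in untreated cells and 6788 and 7634 at 1.5 hr (16.5-fold, log2 4.04, GC-centred 4.06). Tnfaip3, which encodes the ubiquitin-editing enzyme A20, read 7.27 and 6.99 and then 398 and 401 (40.9-fold, log2 5.36). For both genes the untreated and treated columns were far apart, which their choice by both columns favours. Their upstream bases are at chr12:55492648-55492897 (minus strand) and chr10:19015411-19015660 (minus strand), again with the letters GGNNNTTCC in capitals.
Nfkbia: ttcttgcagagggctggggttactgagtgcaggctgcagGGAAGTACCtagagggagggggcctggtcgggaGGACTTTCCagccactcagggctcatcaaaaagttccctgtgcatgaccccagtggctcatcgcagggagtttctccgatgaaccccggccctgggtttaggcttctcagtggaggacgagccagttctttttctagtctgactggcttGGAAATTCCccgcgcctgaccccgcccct
Tnfaip3: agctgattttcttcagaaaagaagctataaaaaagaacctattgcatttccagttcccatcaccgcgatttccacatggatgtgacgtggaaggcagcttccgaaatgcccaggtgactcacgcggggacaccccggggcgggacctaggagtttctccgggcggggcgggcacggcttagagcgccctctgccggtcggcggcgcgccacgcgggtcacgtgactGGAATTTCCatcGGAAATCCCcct
Nfkbia holds 3 matches, at 211, 178 and 29 bases before the start, and Tnfaip3 holds 2 upstream, at 24 and 12 bases before it.

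Of the 15 inhibitors listed 11 passed, and 5 were higher, 0 lower and 6 neither (GC-centred, 7 higher and 0 lower). Nfkbie, which encodes IκBε, read 40.4 and 45.6 and then 519 and 541 (log2 3.17). Nfkbib, for IκBβ, read 168 and 194 and then 792 and 824 (3.26-fold), and Tnip1, for a protein that binds A20, read 212 and 206 and then 672 and 632 (2.28-fold). Of the members called higher, Tnfaip3 and Nfkbie were below 85.6 in untreated cells and passed through their treated values. Zc3h12a, an RNase that degrades cytokine mRNAs, was at log2 0.80 and the IκB-like coactivator Bcl3 at 0.46, and with GC centring they were at 1.38 and 1.69. Nfkbiz (-0.38), Otud7b (-0.30), N4bp1 (-0.48) and Tnip2 (-0.88) were below the median ratio and inside the threshold. Without centring Nfkbiz and Otud7b would lie slightly above 0. Cyld (0.79), Nfkbid (-0.31) and Tnfaip8l2 (-0.21) were measured below the level, and Tnip3, listed at 0 in both untreated columns, was at 8.13 and 9.55.

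Of the 5 NF-κB subunits 4 passed and 3 were higher. Relb, a subunit of the slower noncanonical arm, read 144 and 139 in untreated cells and 717 and 694 at 1.5 hr (3.64-fold, log2 1.87). Nfkb1, the precursor of p50, read 116 and 115 and then 537 and 550 (3.45-fold, log2 1.79). Nfkb2, the precursor of p52, read 433 and 424 and then 1324 and 1348 (2.28-fold, log2 1.19). Rela, which encodes the activating subunit p65, was at 410 and 398 and then at 849 and 842, which is log2 0.61 on the centred ratio and 1.48 with GC centring. Rel stayed below the level with 8.22 and 7.85 against 29.6 and 28.9 (log2 1.41).

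Of 26 TNF receptors and adaptors 17 passed, with 3 higher, 3 lower and a median of 0.03, shares close to the 15.7% and 17.5% of all counted genes, and with GC centring 1 was higher and 0 lower. Birc3, a ubiquitin ligase of the receptor complex, read 31.6 and 28.8 and then 301 and 293 (7.18-fold). The kinase adaptor Tab2 was at log2 1.28 and the kinase Map3k7 (TAK1) was also called higher, and the other adaptor Tab1 was at -1.64. Map3k14, the kinase of the noncanonical arm, was at -1.38 and Rnf31, a subunit of the linear ubiquitin ligase, at -1.08. With GC centring Tab2 was at 0.79, Map3k7 at 0.46, Tab1 at -0.92, Map3k14 at -0.59 and Rnf31 at -0.29, all inside the threshold. Ripk2, a kinase downstream of the NOD sensors and on none of the lists, had 1 of the 12 highest ratios, with 23.4 and 23.1 against 865 and 827 (26.6-fold, log2 4.73).

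Among leukocyte adhesion molecules, 2 of the 3 that passed of 10 were called higher. Vcam1, which binds integrins of lymphocytes and monocytes, read 41.6 and 50.7 and then 871 and 1105 (15.6-fold). Icam1, the ligand of leukocyte integrins, read 54.9 and 59.3 and then 707 and 854 (9.99-fold). Both were called higher with GC centring as well, and Jam3 was at log2 0.09. Vcam1 and Icam1 were below 85.6 in untreated cells and passed through their treated values, so this count is not a result about the list. Over all counted genes 15.7% were called higher. Of 24 interleukins, colony-stimulating factors and TNF ligands 4 passed and 2 were called higher, also with GC centring. Lif, an IL-6 family cytokine, read 38.0 and 32.5 and then 449 and 431 (9.11-fold), and Csf1, the macrophage colony-stimulating factor, read 569 and 530 and then 3311 and 3134 (4.28-fold). Il1rn (0.19) and Tnfsf9 (-0.03) did not reach the threshold. Lif was also below 85.6 in untreated cells and passed through its treated values.

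Several inflammatory genes lay below the level and were counted nowhere above. The examples that follow were chosen after their values were seen, and all are rises. Other genes below the level fell: with no filter on level, the list of interleukins, colony-stimulating factors and TNF ligands had 8 higher and 4 lower. Il1b, for interleukin-1β, had a mean of 2.86 in untreated cells and 105 at 1.5 hr, Tlr2, a receptor for bacterial lipoproteins, 13.3 and 204, and Gbp5 3.14 and 116. Sele, for E-selectin, had means of 0.325 and 18.8, and Cxcl9 1.63 and 71.5. In each of them both columns at 1.5 hr exceeded both untreated columns. Another 4398 genes were at 0 in both untreated columns. Of these 486 were above 0 at 1.5 hr, none passed the level, and no fold is given for them. The highest were Irg1, an enzyme that makes itaconate, at 39.9 and 38.5, and Csf2, the granulocyte-macrophage colony-stimulating factor, at 23.8 and 24.7. They were followed by the activation antigen Cd69 at 14.8 and 16.7 and by Cetn4 at 11.8 and 10.2.

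**Figure D3:**
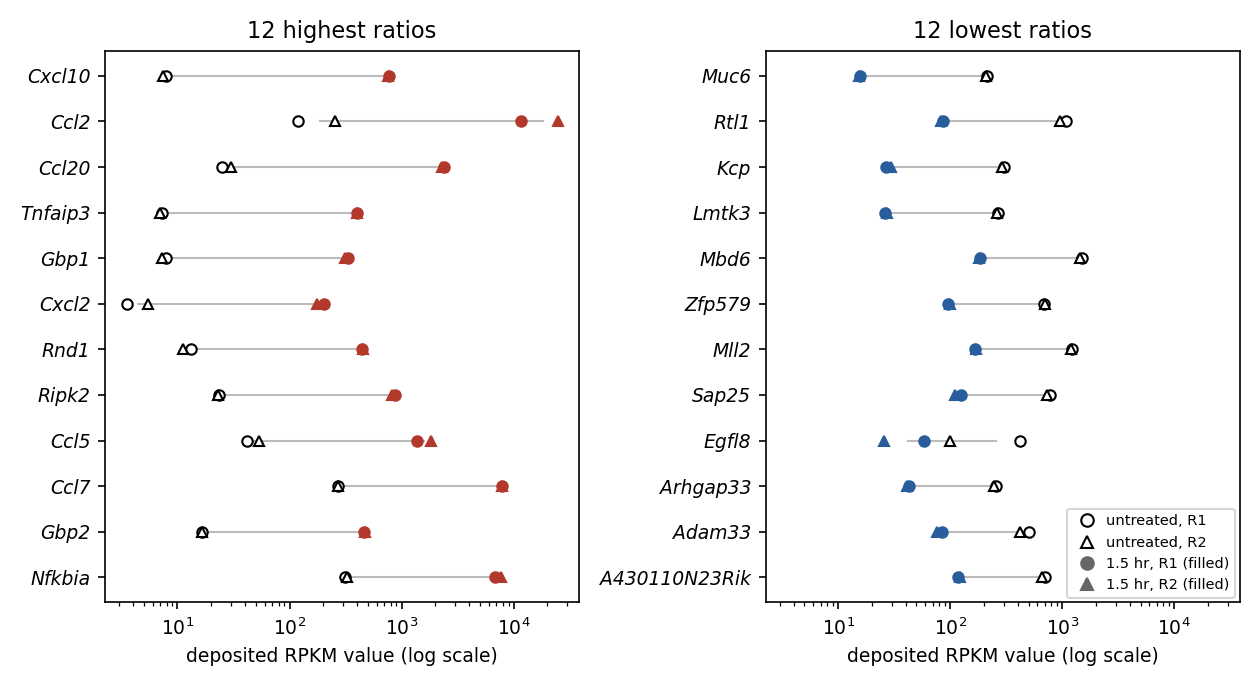
Deposited RPKM values (horizontal log axis) of the 12 genes with the highest and the 12 with the lowest centred ratios at 1.5 hr, with open symbols for untreated cells, filled symbols for 1.5 hr, circles for R1, triangles for R2 and a line between the means. Untreated and treated columns do not overlap for any of these genes, and the R1 and R2 columns differ most for Ccl2 and Egfl8. The genes were chosen for a change of at least 2-fold in both columns, which favours such a gap.

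The remaining genes among the 12 highest ratios were guanylate-binding proteins and Rnd1. Gbp1 read 7.85 and 7.28 in untreated cells and 333 and 310 at 1.5 hr (31.1-fold), and Gbp2 read 16.5 and 16.7 and then 464 and 469 (20.5-fold). These interferon-inducible GTPases act against intracellular pathogens, and their near-identical copies could share reads. Rnd1, a small GTPase that opposes actin stress fibres, read 13.2 and 11.3 and then 439 and 454 (26.6-fold).

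Of 39 interferon regulatory factors and interferon-stimulated genes 18 passed, with 9 higher, 0 lower and a median of 0.92 (GC-centred, 6 and 0). Gbp3 read 15.2 and 11.7 and then 251 and 224 (12.9-fold). Irf1, a transcription factor of the interferon system, read 112 and 115 and then 1229 and 1349 (8.29-fold), and the GTPase Irgm1 read 45.1 and 45.0 and then 393 and 403 (6.46-fold). Gbp2, Gbp3 and Irgm1 were below 85.6 in untreated cells and passed through their treated values. Isg15 (log2 1.31) was also called higher. Ifit1 (0.78), Ifit3 (0.65), Irf7 (-0.37) and Irf9 (-0.36) were not. Irf3, the factor that acts early after virus sensing and the member with the highest untreated level, was at 783 and 748 and then at 576 and 561 (log2 -0.88).

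Antigen presentation by MHC class I had 10 higher and 1 lower of 17 that passed, but both columns passed on their own for 6 of the 10 (median 1.01, GC-centred 7 higher and 0 lower). H2-K1, a classical class I heavy chain, read 358 and 324 and then 1926 and 1859 (4.05-fold). B2m, the light chain, read 3044 and 3704 and then 10766 and 14506 (2.74-fold), and its GC-centred log2 ratio was 0.48. Psme1, a proteasome activator subunit, was lower (1557 and 1502, then 957 and 838), whereas its partner Psme2 was at log2 1.08. The GC-centred log2 ratio of Psme1 was -0.84. The class I heavy chains are near-identical in parts, so their values could be split or shared between copies.

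Immediate-early genes, which respond to signals without new protein synthesis, had 10 higher and 2 lower of 21 that passed (median 0.95, GC-centred 10 higher and 0 lower). Junb, a subunit of AP-1, read 217 and 218 and then 1279 and 1288 (4.31-fold, GC-centred log2 3.33). Ier3 read 220 and 222 and then 1103 and 1118 (3.68-fold), and Klf10 43.7 and 46.1 and then 168 and 180 (2.83-fold). Myc (log2 1.23), Maff (1.23) and Btg2 (1.31) were higher, and Jun (0.95) and Egr1 (-0.34) did not reach the threshold. The nuclear receptor Nr4a1 was lower, with 174 and 170 against 82.4 and 82.3. With GC centring Nr4a1 (-0.94), Klf10 (0.94) and Btg2 (0.93) were inside the threshold. Jund read 1663 and 1722 and then 985 and 1002 (log2 -1.22), and its GC-centred ratio was 0.00. Of the phosphatases and regulators of AU-rich mRNA decay 8 of 18 passed, with 1 higher (Elavl1, log2 1.23) and 1 lower (Khsrp, -1.61), which were at 0.40 and -0.89 with GC centring (1 higher and 0 lower on the list). Dusp1 (0.18) and Zfp36 (0.23) stayed near the median.

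Death and survival genes included members of opposite function. Of 27 listed 18 passed, with 7 higher and 2 lower and a median of 0.21 (GC-centred, 8 and 1). Bid, a BH3-only protein that links death receptors to mitochondria, read 45.2 and 47.6 and then 549 and 582 (8.91-fold). The antiapoptotic Bcl2a1a, Bcl2a1b and Bcl2a1d were at log2 2.54, 2.29 and 2.40, but these near-identical copies could share reads. Bid and these copies were below 85.6 in untreated cells and passed through their treated values. Mcl1, another antiapoptotic member, was at -1.10 and Gadd45g at -1.09 (GC-centred -0.23), while Gadd45b was at 1.38. Fas, a death receptor on the list of p53 targets and Cdk inhibitors, read 16.0 in both untreated columns and 334 and 308 at 1.5 hr (14.7-fold), and it too passed through its treated values. On that list of 19, 13 passed with 5 higher and 1 lower (GC-centred, 5 and 0). Cdkn2a read 742 and 720 and then 3760 and 3353 (3.56-fold), Cdkn2b 481 and 472 and then 1793 and 1668 (2.65-fold), and Cdkn1a, the p53-induced inhibitor p21, was at log2 0.19.

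Enzymes of prostaglandin, nitric oxide and redox metabolism had 9 higher and 0 lower of 16 that passed (median 1.11, GC-centred 8 and 0). Sod2, the mitochondrial superoxide dismutase, had an untreated mean of 51.1 and read 372 and 359 at 1.5 hr (5.22-fold). Txnrd1 was 3.14-fold and catalase (Cat) 2.88-fold higher. Ptgs2, the inducible cyclooxygenase, read 62.3 and 68.6 and then 268 in both columns (log2 1.58), and with GC centring it was at log2 0.61, under the threshold. Mt1, a metallothionein with the highest untreated level of the list, was at 12162 and 10276 and then at 9579 and 8850 (log2 -0.74).

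Acute-phase and sensor genes passed the level in small numbers. Saa3, an acute-phase apolipoprotein, had an untreated mean of 3.52 and read 66.5 and 59.5 at 1.5 hr (13.1-fold), and Ptx3, a soluble pattern recognition protein, 128 and 120 and then 514 and 507 (3.01-fold). Both libraries were below 85.6 for Saa3, which passed through its values of 793 and 755 at 24 hr, and with the level taken over the untreated and 1.5 hr libraries alone the list had 1 higher. C1qa, a chain of the complement protein C1q that macrophages are known to make, read 4387 and 4261 and then 2339 and 2196 (2.61-fold lower), and C1qb was at log2 -0.88. With GC centring C1qa was at -0.52. In all 7 of 21 passed on this list, with 2 higher and 1 lower (GC-centred, 3 and 1). Of 22 Toll-like receptors and sensors 5 passed and 1 was higher. This was Cd14, the coreceptor for endotoxin and also a macrophage marker, with 64.0 and 61.3 against 538 and 493 (6.01-fold). Cd14 was below 85.6 in untreated cells and passed through its treated values. Of 21 SOCS and cytokine feedback genes 11 passed. Il6st, the shared receptor gp130, was higher (log2 1.22), and Pias3 (-1.15) and Il4ra (-1.05) were lower. With GC centring they were at 0.74, -0.77 and -0.69, and the list had 0 higher and 1 lower. That list had a median of -0.38, which was 0.07 without centring.

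Matrix proteases and matrix proteins are given apart. Among 19 metalloproteinases, their inhibitors and plasminogen activators that passed, 7 were higher and 3 lower (median 0.37, GC-centred 5 and 1). Mmp10 read 27.2 and 31.8 and then 385 and 396 (9.67-fold), Mmp13, a collagenase, 54.4 and 57.8 and then 338 and 342 (4.43-fold), and Mmp9, a gelatinase, 47.8 and 46.3 and then 214 and 240 (3.52-fold). Mmp10, Mmp13 and Mmp9 were below 85.6 in untreated cells and passed through their treated values. Mmp14, a membrane-bound protease with the highest untreated level of this list, was at log2 -0.81.

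Of 32 collagen and elastic fibre genes that passed, 1 was higher and 8 were lower, with a median of -0.41 that became 0.04 without centring (GC-centred, 1 and 4). Eln, which encodes elastin, read 651 and 664 and then 163 and 161 (5.56-fold lower). Col16a1 read 830 and 906 and then 288 and 308 (3.99-fold lower), and Fbn2, a fibrillin of embryonic microfibrils, 669 and 666 and then 329 and 350 (2.69-fold lower). Col1a1, the main chain of type I collagen, read 45129 and 42875 and then 24351 and 23205 (2.53-fold lower), while its partner chain Col1a2 was at log2 -0.56. With GC centring Eln was at -1.25 and Fbn2 at -1.56, and Col16a1 (-0.77), Col6a2 (-0.93) and Col1a1 (-0.55) were inside the threshold.

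**Figure D4:**
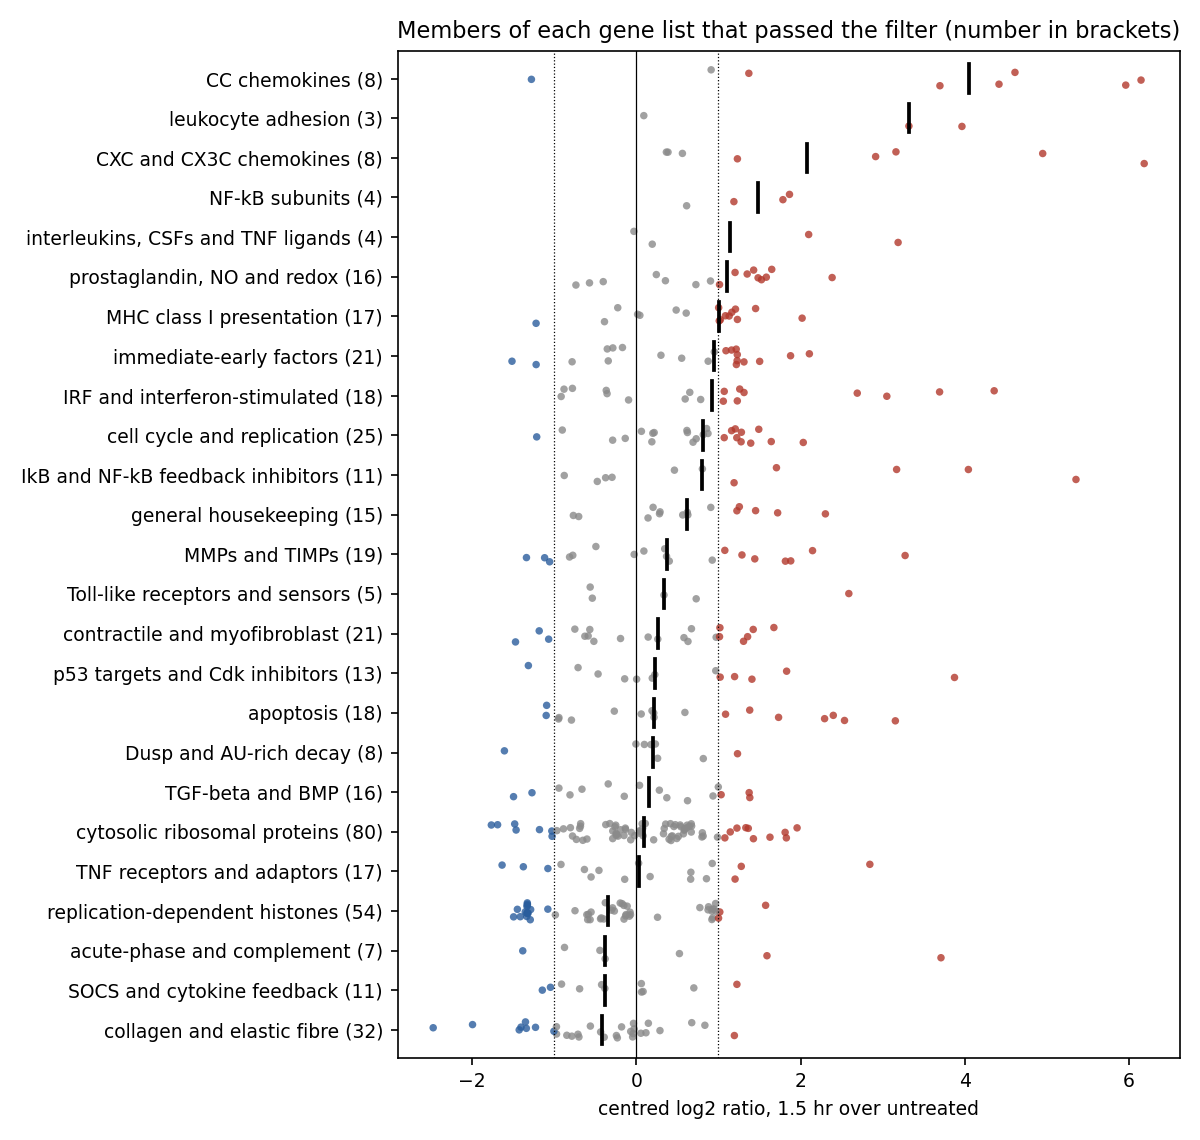
Centred log2 ratio at 1.5 hr (horizontal axis) of every member that passed the level in each of 25 gene lists (rows), with a bar at the median of the list and dashed lines at 2-fold. CC chemokines have the highest median (4.06), and the collagen and elastic fibre list has the lowest (-0.41).

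In the contractile list all 21 genes passed, with 6 higher, 3 lower and a median of 0.26 (GC-centred, 4 and 1). Tpm4 (3.19-fold), Cnn3 (2.68-fold) and Cnn1 (2.56-fold), a tropomyosin and a pair of calponins, were higher. Smtn (smoothelin, log2 -1.47) and Myl6 (-1.18), an abundant myosin light chain, were lower. With GC centring Cnn3 (0.94) and Smtn (-0.61) were inside the threshold. Acta2, the smooth muscle actin of myofibroblasts, was at 0.58. Of 16 TGF-β and BMP genes that passed, 3 were higher and 2 lower (GC-centred, 1 and 2). Over all counted genes 15.7% were called higher and 17.5% lower, and the shares of the TGF-β and BMP list are close to these. The secreted BMP antagonist Grem1 (2.61-fold) was higher and the ligand Bmp4 (2.42-fold) and the protease Bmp1 (2.82-fold) lower, and with GC centring Grem1 was at log2 0.64 and Bmp1 at -0.71.

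Cell cycle and replication genes had 10 higher and 1 lower of 25 that passed, with a median of 0.82 (GC-centred, 7 and 0). Cdk1, the kinase of mitotic entry, read 37.9 and 33.0 and then 213 and 185 (4.09-fold), Pcna, the replication clamp, 102 and 106 and then 456 and 433 (3.12-fold), and Ccnb2 54.0 and 53.3 and then 210 and 203 (2.81-fold). Cdk1 and Ccnb2 were below 85.6 in untreated cells and passed through their treated values. E2f1, a transcription factor of the G1 to S transition, was at log2 -1.21. With GC centring Pcna was at 0.90 and E2f1 at -0.42. Ccnd2, with the highest untreated level, was at 3522 and 3511 and then at 3948 and 3929 (log2 -0.29).

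Ribosomal protein and histone genes have many near-identical copies that could share reads. Of 80 cytosolic ribosomal protein genes that passed, 10 were higher and 7 lower, with a median of 0.09 (GC-centred, 9 and 6). Over all counted genes the shares were 15.7% and 17.5%. Rpl7a read 202 and 555 and then 674 and 3001, so its R1 and R2 columns were far apart at both times, whereas Rpl39 read 3856 and 3570 and then 18231 and 17453 (3.51-fold). Of 54 replication-dependent histone genes that passed, 3 were higher and 16 lower (median -0.34, 0.11 without centring), and both columns passed on their own for 1 higher and 3 lower. With GC centring 16 were higher and 5 lower. Hist1h2bc, an H2B gene, was at log2 1.57 and Hist1h2ao, an H2A gene, at -1.45 (GC-centred -0.23). Both kinds of gene are reported as uncertain.

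Of 15 housekeeping genes that passed, 5 were higher and 0 lower, with a median of 0.62 (GC-centred, 5 and 0). Gapdh was at log2 0.20 and Actb at -0.70. Hprt, a purine salvage enzyme whose transcript has a GC content of 40.1%, read 41.6 and 44.3 and then 287 and 293 (log2 2.30, GC-centred 1.33). Eef1a1, the translation elongation factor, was at 1.72, and Ywhaz at 1.25 (GC-centred 0.51).

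The lowest ratio was that of Muc6, a gel-forming mucin. Its untreated columns read 215 and 207 and its columns at 1.5 hr 15.6 and 15.4 (18.6-fold lower, log2 -4.22). Rtl1, a retrotransposon-derived imprinted gene, read 1084 and 948 and then 85.4 and 82.1 (16.6-fold lower), and Kcp, a secreted modulator of BMP signals, 300 and 291 and then 26.5 and 29.4 (14.5-fold lower). All columns at 1.5 hr lay below all untreated columns in these genes, which their choice by both columns favours. Lmtk3 (13.4-fold), Mbd6 (11.0-fold), Zfp579 (9.78-fold) and Mll2 (9.75-fold), the last a methyltransferase for histone H3 lysine 4, were also lower. Sap25, Egfl8, Arhgap33, Adam33 and A430110N23Rik completed the 12 lowest, with log2 ratios from -3.14 to -2.97. Egfl8 read 417 and 100 and then 58.7 and 25.7, and its ratio was -3.27 in R1 and -2.43 in R2. The GC content of the 12 ranged from 53.8% for Muc6 to 66.7% for Lmtk3, and their GC-centred log2 ratios from -1.80 (Arhgap33) to -4.11 (Muc6).

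The later libraries were divided by the same untreated library, so the values at 6 and 24 hr are given side by side and not compared as independent results. Cxcl10 was at log2 6.19, 4.83 and 3.93 at 1.5, 6 and 24 hr, Tnfaip3 at 5.36, 4.05 and 4.27, Ripk2 at 4.73, 3.49 and 2.86, and Nfkbia at 4.04, 3.80 and 4.06. Cxcl2 was at 4.95, 5.51 and 4.35 and Ccl5 at 4.61, 6.31 and 5.93. The 12 genes with the highest ratios at 1.5 hr ranged from 3.49 (Ripk2) to 6.31 (Ccl5) at 6 hr and from 2.86 (Ripk2) to 6.06 (Ccl2) at 24 hr. Saa3, outside the 12, was at 3.71, 6.04 and 7.67. The genes at least 4-fold higher at 1.5 hr had median log2 ratios of 2.33, 1.62 and 2.17 at the same times.

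Muc6 was at -4.22, 0.10 and -4.39, Rtl1 at -4.05, 0.29 and -3.58, and Mbd6 at -3.46, 0.78 and -2.68. The 12 genes with the lowest ratios at 1.5 hr ranged from -1.40 (A430110N23Rik) to 0.95 (Lmtk3) at 6 hr and from -4.39 (Muc6) to -2.38 (Adam33) at 24 hr. Over the 148 genes at least 4-fold lower at 1.5 hr the medians were -2.33, 0.07 and -2.03. With GC centring the medians of these genes were -1.62, 0.20 and -1.41. Eln was at -2.48, -2.63 and -4.94. With 1 library per time, a property of the 6 hr library and a property of the cells at 6 hr cannot be told apart.

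**Figure D5:**
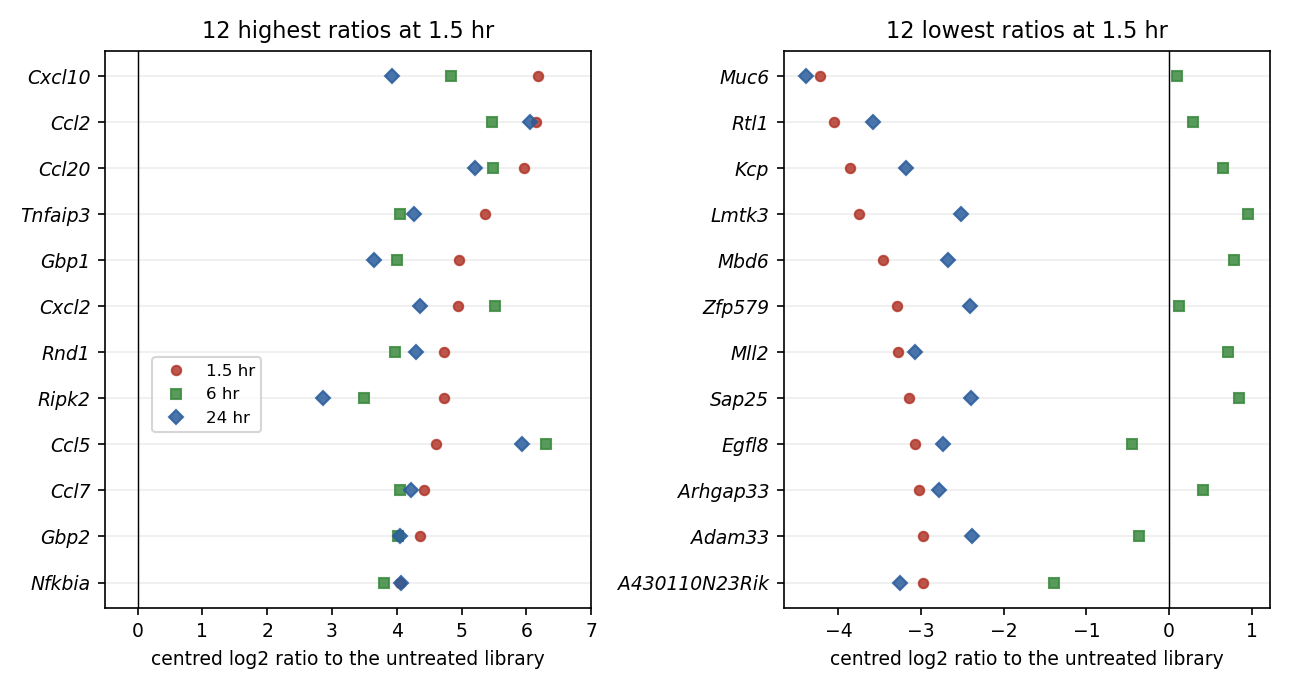
Centred log2 ratios to the untreated library (horizontal axes) at 1.5, 6 and 24 hr for the genes with the 12 highest ratios at 1.5 hr (left) and the 12 lowest (right), 1 row per gene. The left panel spans 2.86 to 6.31, and in the right panel the 6 hr values run from -1.40 to 0.95.

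The letters in the promoters were then counted over all genes with a window in the RefSeq table, 250 bases before to 50 after the start, which 4753 of the counted genes (72.3%) had. GGNNNTTCC on either strand was found in 25.9% of the windows of genes at least 2-fold higher (191 of 738) and in 32.1% of those at least 4-fold higher (27 of 84). It was found in 21.4% of those at least 2-fold lower (176 of 824), in 22.3% of all counted genes and in 18.5% of all 32851 windows of the table. With the GC-centred ratio, 40.7% of windows of genes at least 4-fold higher held it (24 of 59) and 26.1% of those at least 4-fold lower (12 of 46). At 2-fold on that ratio the shares were 25.6% of higher and 24.0% of lower genes. The narrower letters GGNNTTTCC, a subset of these, were in 8.67% of the 2-fold higher, 4.49% of the 2-fold lower and 6.14% of all counted genes. The TATA box letters TATAAA were in 17.9% of the 4-fold higher and 6.67% of all counted genes, and in 13.6% of all windows. The AP-1 letters TGANTCA were in 17.9% and 4.84%, and in 7.81% of all windows. They were in 5.77% of the 4-fold lower genes. With the GC-centred ratio they were in 11.9% of the 4-fold higher (7 of 59) and 10.9% of the 4-fold lower genes (5 of 46). The GC box letters GGGCGG were in 66.7% of the 4-fold higher and 68.9% of all counted genes, and in 35.7% of all windows. All were searched on both strands, and a match is a description of the letters.

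Of the 12 highest ratios 6 had a window, and all 6 held GGNNNTTCC, among them Gbp2, whose match begins 7 bases after the start. Ccl2, Gbp1, Rnd1, Ripk2, Ccl5 and Ccl7 were the others. Of the 12 lowest ratios 7 had a window (Muc6, Kcp, Lmtk3, Mbd6, Zfp579, Sap25 and Egfl8), and none held the letters.

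H3K4me3, a histone mark of active and poised promoters, had been profiled in untreated MEFs only, with 11157 deposited peaks. A peak lay within 1 kb of an annotated start (mm9) for 90.9% of the genes at least 2-fold higher, 85.9% of those at least 2-fold lower and 92.2% of all counted genes. It did so for 75.9% of the genes at least 4-fold higher and 70.3% of those at least 4-fold lower. Of the 12 highest ratios 5 had a peak before treatment: Ripk2 (1208 tags), Tnfaip3 (1061), Nfkbia (985), Rnd1 (722) and Gbp2 (359). The chemokines Cxcl10, Ccl2, Ccl20, Cxcl2, Ccl5 and Ccl7 and the gene Gbp1 had none in the deposited list. Junb (3155 tags), Csf1 (2518) and Irf1 (1381) had peaks, and Icam1 and Saa3 had none. Peaks were found below an untreated level of 85.6 and missing above it. Vcam1 (1222 tags) and Lif (956) were below it with a peak, and Ccl2 and Ccl7 above it without one. Of the 12 lowest ratios 5 had a peak, with Mbd6 (3730 tags) and Mll2 (3242) the highest.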

How the data were processed

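RNA-seq reads were mapped to mm9 by the authors with TopHat, and an in-house script of theirs gave RPKM per RefSeq transcript. The deposited RPKM values carry a scale of their own, on which 85.6 stands for about 1 RPKM. Column names were tied to libraries through the study's depth table and the times in the sample labels. For H3K4me3, mapped by the authors with Bowtie, the deposited peak list was called with MACS and gives tag counts and a fold enrichment for each peak.

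From these files, the mean of R1 and R2 was taken per library, protein-coding (NM_) rows were reduced to 1 per symbol (the highest mean of the 8 columns), and ratios were centred on the median ratio of genes above 85.6, with no pseudocount. GC-centred ratios used 20 bins of equal size, with GC content and length from the longest protein-coding transcript of GENCODE vM1 (mm9). Promoter windows are RefSeq's on GRCm38.p6 and were matched by symbol only, and no coordinate was converted between builds. The 250 bases before the start are printed for those of the 12 highest ratios with a match upstream.

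The text names the 12 highest and 12 lowest ratios that held in both columns and, in each of 25 lists, up to 4 members with the largest change held in both columns together with the member of highest untreated level. It also names every NF-κB subunit and inhibitor, and the 5 highest genes listed at 0 before treatment. Other genes given by their ratio alone complete the description of a list and were chosen after their values were seen. Some genes that this rule selects are not reported here. The comparison, the lists and the rule were chosen with earlier results of these data known.

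No test was made, since there was 1 library per time. Alternatives covered scaling, level filter, pseudocount, fold threshold, columns, choice of row and GC content. The scripts were tested on simulated data first. Python 3.11.15, numpy 2.4.6, pandas 2.3.3 and matplotlib 3.10.9 were used.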

Additional observations from a re-analysis of the deposited data

Results flagged for a closer look

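Rpsa, which encodes a protein of the small ribosomal subunit, was singled out because its ratio moved in opposite directions at 2 times. It read 55163 and 40510 in untreated cells and 20075 and 18394 at 1.5 hr, a centred log2 ratio of -1.77. At 6 hr it read 74521 and 46275, and its centred log2 ratio was 1.08. That value includes the centring of the 6 hr library, whose median ratio was log2 -0.74. The difference between the times was not tested, since each is 1 library and both share the untreated library. The gene has many near-identical processed copies, which could share its reads.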

How the results depend on the processing

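The counts of 1030 genes higher and 1150 lower were moved by more than 1.5 times under several settings. Without centring they were 1962 and 514. With no filter on level they were 2313 and 3401, and with a filter at 5 times the level 355 and 342, over other numbers of genes. A pseudocount of 85.6 gave 486 and 671, and a 3-fold threshold 295 and 379. GC centring gave 682 lower, and centring by GC content and length together, an alternative chosen after seeing the data, gave 572 and 650. The other scalings, filters and choices of column or row left both counts within 1.5 times. Of 107 named genes called at 2-fold that had a GC content, 78 stayed so with GC centring and 76 with GC content and length, and 1 changed sign: Jund, at 0.003. The cause was not tested.

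The share of promoter windows with the letters moved from 25.9% to 32.1% of higher genes at 4-fold, and to 8.67% of higher and 4.49% of lower genes with the narrower letters. The share with a peak moved to 75.9% of higher and 70.3% of lower genes at 4-fold, and to 88.3% of lower genes within 5 kb.

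No paired analysis was possible because each time has 1 library, and for the same reason no replicate was left out. The deposited values keep no read numbers, so counting error at low levels is not known. How reads were shared between near-identical gene copies was not tested.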
